A study of Mus musculus with 6 samples.

Results

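A set of 10 genes of dietary lipid absorption in the enterocyte were followed through small intestinal crypt RNA of mice with and without CSN8 in the gut epithelium. The genes were taken by name from the gene symbols of the array annotation, as genes of lipid uptake, intracellular binding or chylomicron formation. All 10 of the 10 listed genes were measured, each by 1 probe set, among 19505 genes in all. They were 4 apolipoprotein genes (Apoa1, Apoa4, Apoc3 and Apob), 2 genes of lipoprotein assembly and triglyceride synthesis (Mttp and Dgat1) and 4 genes of uptake and intracellular binding (Cd36, Fabp1, Fabp2 and Rbp2).

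The study compared crypts of 3 CSN8fl/fl samples with crypts of 3 CSN8ΔIEC samples to ask whether CSN8 deficiency alters antimicrobial peptide production. In CSN8fl/fl the Cops8 gene, coding for COP9 signalosome subunit 8, is flanked by loxP sites. CSN8ΔIEC was taken, from its name, as that allele deleted in intestinal epithelial cells; no source used here gives the Cre driver. All mice had a C57BL/6 background and no treatment is named. In both genotypes, the labels give replicates 1 and 2 as 16-week females and replicate 3 as a 10-week male. Villi were scraped away before the crypts were released with EDTA, so enterocyte transcripts were read here in a preparation meant to hold mainly crypts.

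In the absorptive enterocyte, fatty acids and monoglycerides from the lumen are taken up, carried by fatty acid-binding proteins and rebuilt into triglyceride at the endoplasmic reticulum. Microsomal triglyceride transfer protein loads this lipid onto apolipoprotein B, and the particle leaves the cell toward the lymph as a chylomicron that also carries the smaller apolipoproteins. These genes are switched on as cells leave the crypt and mature along the villus.

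The labels call the samples biological replicates without saying that each came from its own mouse, so the spread behind every p-value here is that between samples and may be partly technical. Arrays have no read depth, and their number sets the precision. The Cops8 signal lay between 8.10 and 8.26 in the 3 CSN8fl/fl arrays and between 7.61 and 7.77 in the 3 CSN8ΔIEC arrays, a difference that did not pass the threshold used throughout, an adjusted p under 0.05 over all genes (limma, adjusted p = 0.0865). Whether its probes lie in the deleted part was not tested. The Y-linked signals went against the labelled sex in 6 of 6 libraries, with Eif2s3y between 9.61 and 10.1 in replicates 1 and 2 and at 4.06 and 2.81 in replicate 3 of the 2 genotypes, so the samples are named here by replicate and not by sex. CSN8fl/fl replicate 3 stood apart from the other libraries, with correlations over all probe sets of 0.976 to 0.986.

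The starts of 3 genes are shown because they hold the same short motif, on genes that code for a chylomicron apolipoprotein, a fatty acid carrier and a retinol carrier. Of the 10 genes, 8 matched an entry of the RefSeq promoter table (build GRCm38.p6), and Apoc3 and Dgat1 did not. Each line gives the 250 bases before the annotated start, 5′ to 3′ on the strand of the gene. Capitals mark CAAAGNNCA, searched on both strands (TGNNCTTTG on the other), a form of the site bound by HNF4 factors. The region of Apoa4 is chr9:46240594-46240843, that of Fabp2 chr3:122894822-122895071 and that of Rbp2 chr9:98490287-98490536, all on the plus strand.
Apoa4: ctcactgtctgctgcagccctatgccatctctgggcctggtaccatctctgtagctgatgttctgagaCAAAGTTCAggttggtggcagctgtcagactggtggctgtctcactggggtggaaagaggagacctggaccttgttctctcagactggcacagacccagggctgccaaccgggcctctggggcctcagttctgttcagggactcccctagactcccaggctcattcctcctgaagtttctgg
Fabp2: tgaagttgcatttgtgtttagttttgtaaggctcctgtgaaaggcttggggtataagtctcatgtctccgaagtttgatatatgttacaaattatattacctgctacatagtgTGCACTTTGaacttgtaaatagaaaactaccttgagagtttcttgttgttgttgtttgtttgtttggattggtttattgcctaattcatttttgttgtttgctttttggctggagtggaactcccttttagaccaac
Rbp2: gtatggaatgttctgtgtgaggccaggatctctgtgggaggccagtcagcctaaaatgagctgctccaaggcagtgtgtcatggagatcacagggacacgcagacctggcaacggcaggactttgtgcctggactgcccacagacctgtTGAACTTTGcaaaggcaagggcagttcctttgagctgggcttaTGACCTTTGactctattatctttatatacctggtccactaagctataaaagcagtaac
The motif occurred in 4 of the 8 promoters, in Apoa4, Fabp2, Rbp2 and Apob, and in 5.14% of 15691 promoters of measured genes of the same length. Rbp2 held it at 2 places, at bases −101 to −93 and −58 to −50 from the start. The TATA box letters TATAAA occurred in 3 of the 8 (Apob, Fabp1 and Rbp2) against 12.1% of all promoters, and the GATA letters AGATAA in Rbp2 alone against 8.9%. The motif was chosen after the sequences had been read, and a match of letters describes the window only.

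None of the 10 lipid absorption genes passed the threshold between the genotypes. Over all genes 210, or 1.08%, passed. Their log2 differences, CSN8ΔIEC minus CSN8fl/fl, ran from −0.49 for Apoc3 to 0.15 for Apoa4 with a median of −0.15, where the median over all genes was −0.011. Leaving out 1 array moved the median of the 10 to between −0.29, without CSN8fl/fl replicate 1, and −0.027, without CSN8ΔIEC replicate 1; it also moved by over 1.5 times, to −0.066 when CSN8fl/fl replicate 3 was dropped, to −0.28 for CSN8ΔIEC replicate 2 and to −0.074 for CSN8ΔIEC replicate 3. Of the 10, 7 were below 0 and 3 above. In 0 of the 10 did the values of the genotypes separate without overlap, while 22.4% of all genes did so. At an unadjusted p under 0.05 there was 1 of the 10, Apoc3, against 15% of all genes. The 95% intervals of all 10 differences lay between −0.95 and 0.57, inside a 2-fold change in either direction, as they did for 94.7% of all genes.

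**Figure D1:**
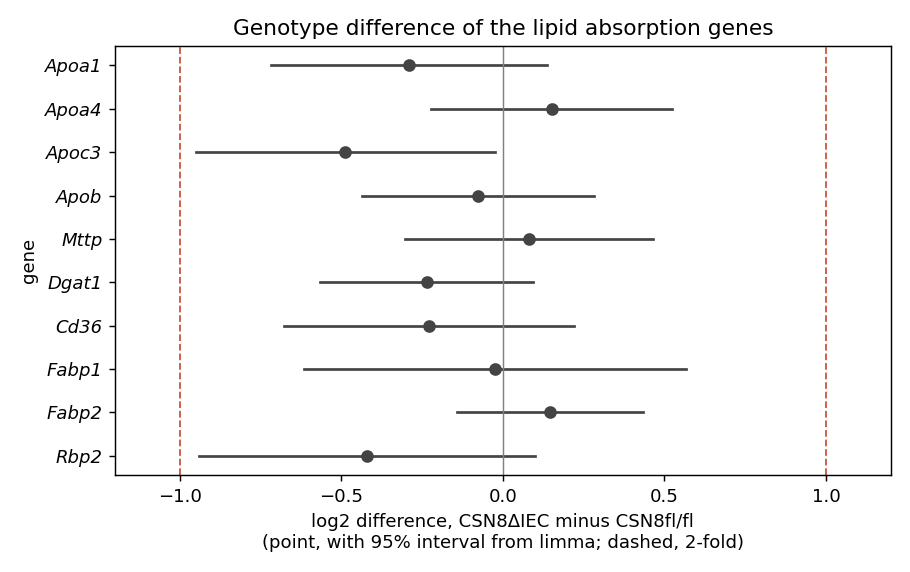
Log2 difference between CSN8ΔIEC and CSN8fl/fl crypts for each of the 10 genes (points) with the 95% interval from limma (bars); dashed lines mark a 2-fold change. Every interval lies within the dashed lines, and that of Apoc3, −0.95 to −0.023, is the one that leaves out 0.

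Among the apolipoproteins, Apoc3, which encodes an inhibitor of lipoprotein lipase and of remnant uptake, had the largest difference. In CSN8fl/fl its log2 signal was 10.93, 10.78 and 10.67, and in CSN8ΔIEC it was 10.21, 10.78 and 9.93, here and below in the order of replicates 1 to 3. CSN8ΔIEC replicates 1 and 3 lay below all CSN8fl/fl values and replicate 2 lay among them. The difference of −0.49 ± 0.20 (SE), or 1.40-fold, did not pass (adjusted p = 0.307). Without CSN8ΔIEC replicate 2 it was −0.72 (adjusted p = 0.105), and without CSN8ΔIEC replicate 3 it was −0.30 (adjusted p = 0.625).

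Apoa1 encodes the main protein of high-density lipoprotein, which is also made in the gut. It read 13.56, 13.46 and 13.81 in CSN8fl/fl and 13.07, 13.73 and 13.15 in CSN8ΔIEC, again with CSN8ΔIEC replicate 2 within the CSN8fl/fl range and the other two under it. The difference was −0.29 ± 0.19 (adjusted p = 0.505).

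Apoa4, a chylomicron apolipoprotein that rises with fat feeding, went the other way. Its values were 13.18, 13.34 and 13.36 in CSN8fl/fl and 13.37, 13.79 and 13.18 in CSN8ΔIEC, and the groups overlapped (difference 0.15 ± 0.16, adjusted p = 0.707). Apob encodes the structural protein of the chylomicron. It read 12.76, 12.76 and 13.09 in CSN8fl/fl and 12.63, 13.06 and 12.70 in CSN8ΔIEC. The highest Apob array of each genotype was well apart from the other two, and the difference between genotypes, −0.076 ± 0.16, was smaller than that gap (adjusted p = 0.852).

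Mttp encodes the transfer protein that lipidates apolipoprotein B. It read 12.26, 12.34 and 12.62 in CSN8fl/fl and 12.42, 12.80 and 12.24 in CSN8ΔIEC, with 5 of the 9 pairs of arrays across genotypes higher in CSN8ΔIEC (difference 0.082 ± 0.17, adjusted p = 0.852). Dgat1, whose enzyme adds the last fatty acid to triglyceride, read 10.62, 10.63 and 10.83 in CSN8fl/fl and 10.45, 10.69 and 10.23 in CSN8ΔIEC. Its CSN8ΔIEC replicates 1 and 3 lay below every CSN8fl/fl array (difference −0.24 ± 0.15, adjusted p = 0.484).

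Of the uptake and binding genes, Cd36, a fatty acid translocase at the cell surface, had the lowest place among measured genes, at the 62.1st percentile of mean signal, while the other 9 lay from the 93.5th upward. Cd36 is also made by fat, endothelial and myeloid cells. Its values were 7.73, 7.98 and 8.02 in CSN8fl/fl and 7.29, 8.09 and 7.67 in CSN8ΔIEC, a difference of −0.23 ± 0.20 (adjusted p = 0.624). The defining fat markers Adipoq and Fabp4 were at 3.33 to 3.99 and 3.89 to 4.83, under the lower quartile of mean gene signals, 5.01, and Plin1 was above it at 5.64 to 6.03. Lep was under that quartile at 4.44 to 4.93, and Retn lay across it at 4.88 to 5.38. Endothelial markers lay on both sides of it, from Kdr at 3.85 to 4.83 to Lyve1 at 7.08 to 8.48. The general leukocyte marker Ptprc was at 7.93 to 9.91 and the T cell marker Cd3e at 7.39 to 8.32. Of the myeloid markers, Csf1r was at 4.69 to 5.27, Adgre1 at 5.20 to 5.84 and Itgam at 6.92 to 8.35. Of the fat markers 0 of 5 passed, and the log2 of their summed signal was 7.21 to 7.32 in CSN8fl/fl and 7.25 to 7.38 in CSN8ΔIEC. That of the 6 endothelial markers was 8.64 to 8.98 and 8.88 to 9.12, and that of the 5 leukocyte markers 9.96 to 10.53 and 9.25 to 9.68. The part of these cells in the Cd36 signal was not tested.

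Fabp1, the liver-type fatty acid-binding protein that is abundant in the proximal gut, varied most within CSN8fl/fl, at 10.91, 11.53 and 11.95. In CSN8ΔIEC it was 11.44, 11.77 and 11.12, inside that range in all 3 arrays. The difference of −0.023 ± 0.26 was the nearest to 0 (adjusted p = 0.974), and the genotypes accounted for 0.108% of its sum of squares over the 6 arrays. It turned to 0.22 without CSN8fl/fl replicate 3 and did not pass there either (adjusted p = 0.735).

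Fabp2, the intestinal fatty acid-binding protein, varied least. It read 13.65, 13.46 and 13.58 in CSN8fl/fl and 13.66, 13.88 and 13.59 in CSN8ΔIEC, with 8 of the 9 array pairs higher in CSN8ΔIEC (difference 0.14 ± 0.13, adjusted p = 0.630). Only 5 of the measured genes were brighter than Fabp2 on average, 11 were brighter than Apoa1 and 15 than Apoa4. The highest signal on any array was 14.1, and signals near that end of the scale respond less to a change in RNA.

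Rbp2 encodes the retinol carrier of the enterocyte, which hands absorbed vitamin A to esterification for export in chylomicrons. It had the widest range over the 6 arrays, 1.15, at 11.82, 12.11 and 12.54 in CSN8fl/fl and 11.69, 12.13 and 11.38 in CSN8ΔIEC. CSN8ΔIEC replicates 1 and 3 lay below all CSN8fl/fl values, and replicate 2 above 2 of them. The difference was −0.42 ± 0.23 (adjusted p = 0.432), and its 95% interval, −0.94 to 0.10, reached 0.

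The genotypes accounted for a median of 22.9% of the sum of squares of the 10 genes over the 6 arrays, close to the 22.6% over all genes. The within-genotype SD of the 10 genes had a median of 0.26, against 0.18 over all genes. CSN8ΔIEC replicate 2 was the highest array of its genotype in 10 of 10 genes, and CSN8fl/fl replicate 3 the highest of its own in 8 of 10, all but Apoc3 and Fabp2. CSN8ΔIEC replicate 3 was below the mean of the 6 arrays in all 10 genes and the lowest array of its genotype in 7. Over the 10 genes, the median deviation from each gene's mean was −0.069, 0.027 and 0.24 in CSN8fl/fl and −0.16, 0.26 and −0.26 in CSN8ΔIEC.

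**Figure D2:**
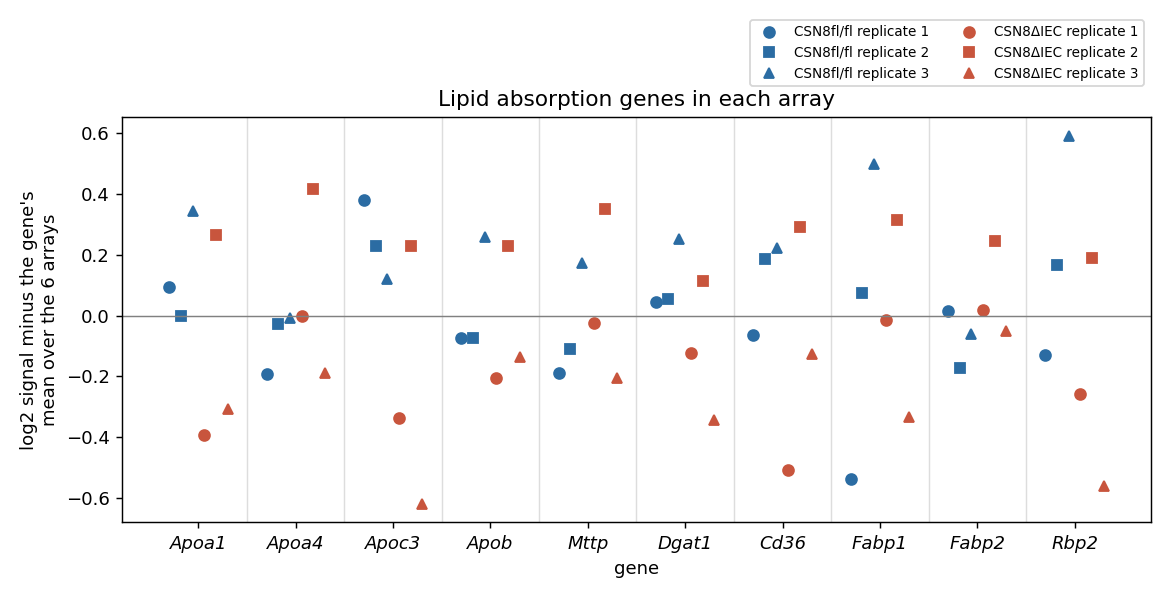
Log2 signal of each gene in each of the 6 arrays, minus the mean of that gene over the arrays; colour gives the genotype and shape the replicate. CSN8ΔIEC replicate 2 (orange squares) lies above 0 in all 10 genes, CSN8fl/fl replicate 3 (blue triangles) in 8, and CSN8ΔIEC replicate 3 (orange triangles) below 0 in all 10.

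Compared array by array with the same replicate number, the direction depended on the number, although the numbers were not found to pair the samples. In replicate 2, 9 of 10 genes were higher in CSN8ΔIEC, with a median of 0.25 and Mttp highest at 0.46. In replicate 3, 9 of 10 were lower, with a median of −0.50 and Rbp2 lowest at −1.15, while Fabp2 was at 0.010. In replicate 1, 4 were higher and 6 lower, between −0.72 for Apoc3 and 0.52 for Fabp1.

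Replicate 3 differs from the others in labelled age and sex, and the genotype difference there was set against that in replicates 1 and 2 in a model with an interaction term. The interaction was below 0 in all 10 genes, with a median of −0.52, and passed in none (0% of all genes passed, and 10.1% had an unadjusted p under 0.05). That sign was not particular to the 10 genes. It was found in all 17 brush border genes and all 5 villus tip markers described below, and in 0 of 8 markers of stem and dividing cells. At an unadjusted p under 0.05 there were 2 of the 10, Fabp1 at −1.22 (limma, adjusted p = 0.435) and Rbp2 at −1.10 (limma, adjusted p = 0.422). Each genotype had 1 array of replicate 3, so this spread came from replicates 1 and 2 alone. The difference between replicate 3 and replicates 1 and 2, over both genotypes, passed in 0 of 10 genes, against 0.0154% of all genes, and 0 of the 10 had an unadjusted p under 0.05. It was above 0 in 5 genes, and the adjusted p-values ran upward from 0.778 for Apoc3, at −0.37.

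The same 2 arrays stood apart in villus tip markers. Of 5 markers of villus tip cells, the most mature enterocytes, the median deviation was 0.81 in CSN8fl/fl replicate 3 and 0.76 in CSN8ΔIEC replicate 2, and between −0.53 and −0.19 in the other 4 arrays. Slc28a2, a nucleoside transporter on that list, read 9.50, 8.99 and 11.08 in CSN8fl/fl and 8.88, 10.46 and 9.26 in CSN8ΔIEC. The log2 of the summed signal of the 5 markers was 13.46 to 14.26 in CSN8fl/fl and 13.39 to 14.19 in CSN8ΔIEC, and 0 of 5 passed between genotypes. Markers of crypt stem and dividing cells were lowest in CSN8fl/fl replicate 3, with a median of −0.52, but at 0.21 in CSN8ΔIEC replicate 2, between the 0.19 and 0.34 of the other CSN8ΔIEC arrays. In bulk RNA, fewer cells of a type and less RNA per cell cannot be told apart, and the part of villus cells in these values was not tested.

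**Figure D3:**
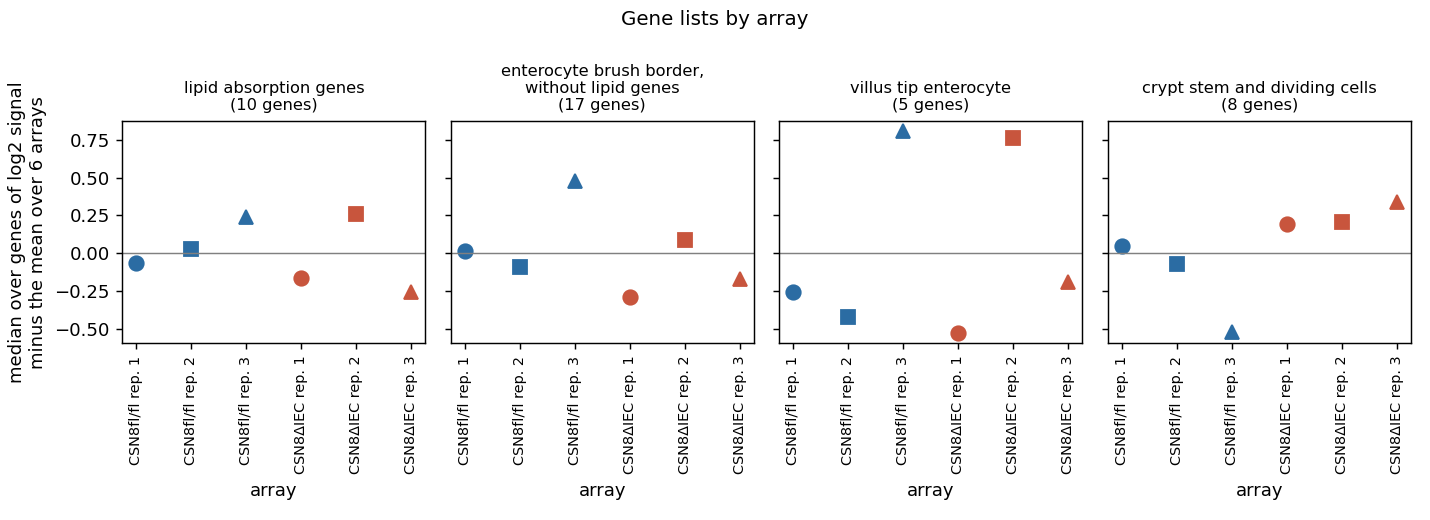
Median over the genes of a list of the log2 signal minus each gene's mean over the 6 arrays, by array, for the 10 lipid absorption genes, 17 brush border genes, 5 villus tip markers and 8 markers of stem and dividing cells. CSN8fl/fl replicate 3 and CSN8ΔIEC replicate 2 are the highest arrays in the first 3 panels; in the fourth, CSN8fl/fl replicate 3 is the lowest.

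The brush border list, which holds digestive enzymes and transporters of the same cells and none of the 10 genes, had a median difference of −0.20, with 15 of 17 below 0, 0 that rose, 0 that fell and 5 at an unadjusted p under 0.05, against 15% of all genes. By array, its median deviation was 0.015, −0.092 and 0.48 in CSN8fl/fl and −0.29, 0.084 and −0.17 in CSN8ΔIEC, so that CSN8fl/fl replicate 3 stood apart and CSN8ΔIEC replicate 2 was close to CSN8fl/fl replicate 1. The largest difference on the list was that of Alpi, intestinal alkaline phosphatase, at 12.20, 12.11 and 12.74 in CSN8fl/fl and 11.04, 11.72 and 11.06 in CSN8ΔIEC (difference −1.08 ± 0.23, adjusted p = 0.0681). The groups did not overlap in 4 of the 17, Alpi among them, against 22.4% of all genes. Enterocyte transcripts were bright in these crypt preparations, with Sis between 12.94 and 13.53 and Anpep between 13.63 and 13.85.

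Among the 10 genes, Apoa1, Apoc3 and Apoa4, lie side by side on mouse chromosome 9 in the RefSeq annotation, with Apoc3 between the others. Their signals can be set against each other within an array, which leaves out whatever raises or lowers all of them equally there. Apoa1 minus Apoa4 was 0.38, 0.12 and 0.44 in CSN8fl/fl and −0.30, −0.058 and −0.026 in CSN8ΔIEC. The genotypes did not overlap, and the mean differed by −0.44 on the log2 scale. Apoc3 showed the same, with Apoa4 minus Apoc3 at 2.25, 2.56 and 2.69 in CSN8fl/fl and 3.16, 3.01 and 3.25 in CSN8ΔIEC, a difference of 0.64. Of all pairs of genes 22.9% did not overlap in this way, and Apoa1 and Apoa4 lie near the end of the scale, so an unequal change of the transcripts was not tested by these values.

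Relative to Apoa4, 5 of the other 9 genes (Apoa1, Apoc3, Cd36, Dgat1 and Rbp2) were lower in every CSN8ΔIEC array than in every CSN8fl/fl array, where 13.3% of all genes were. Apob, Fabp1, Fabp2 and Mttp overlapped. Over all 45 pairs of the 10 genes, 14 did not overlap, beside the same 22.9%. Apoa4, with the highest difference of the 10 genes, was singled out after its values were seen. Lower values relative to it follow in part from that choice. CSN8ΔIEC replicate 2 was the highest array of its genotype in all 10 genes, and subtraction takes out much of such a shared pattern. The shares over all genes and all pairs, here and above, are therefore not a like background. Pairs share genes, and with 3 arrays against 3 an exact permutation test cannot give a two-sided p under 0.1, so no test was made.

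In the wider pathway, 77 of 86 listed genes were measured, of which 1 rose and 2 fell, where 0.374% of all genes rose and 0.702% fell. The groups did not overlap in 27 of the 77, against 22.4% of all genes. The median difference was −0.13, close to the −0.15 of the 10 genes. The 3 that passed encode enzymes of retinoid and monoglyceride metabolism. Lrat, which esterifies the retinol that RBP2 carries, read 8.63, 8.48 and 8.77 in CSN8fl/fl and 7.35, 7.88 and 7.60 in CSN8ΔIEC. It fell 2.03-fold (difference −1.02 ± 0.16, adjusted p = 0.0239). Aldh1a1, which oxidises retinaldehyde to retinoic acid, rose 2.51-fold from 10.69, 10.76 and 10.14 to 12.14, 11.76 and 11.68 (difference 1.33 ± 0.19, adjusted p = 0.0185).

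Mgll, the monoacylglycerol lipase that splits a product of fat digestion, was dim, at 5.87, 5.82 and 6.12 in CSN8fl/fl and 5.11, 5.03 and 4.86 in CSN8ΔIEC. It fell 1.91-fold (difference −0.94 ± 0.13, adjusted p = 0.0169). None of the 3 passed without CSN8ΔIEC replicate 1, where the differences were −0.89 for Lrat (adjusted p = 0.100), 1.19 for Aldh1a1 (adjusted p = 0.0875) and −0.99 for Mgll (adjusted p = 0.0673) and where 41 genes in place of 210 passed over all genes. Of the 3, 1 passed without CSN8ΔIEC replicate 2 (Lrat) or 3 (Aldh1a1). Lrat did not pass without any 1 CSN8fl/fl array either (adjusted p up to 0.0660).

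**Figure D4:**
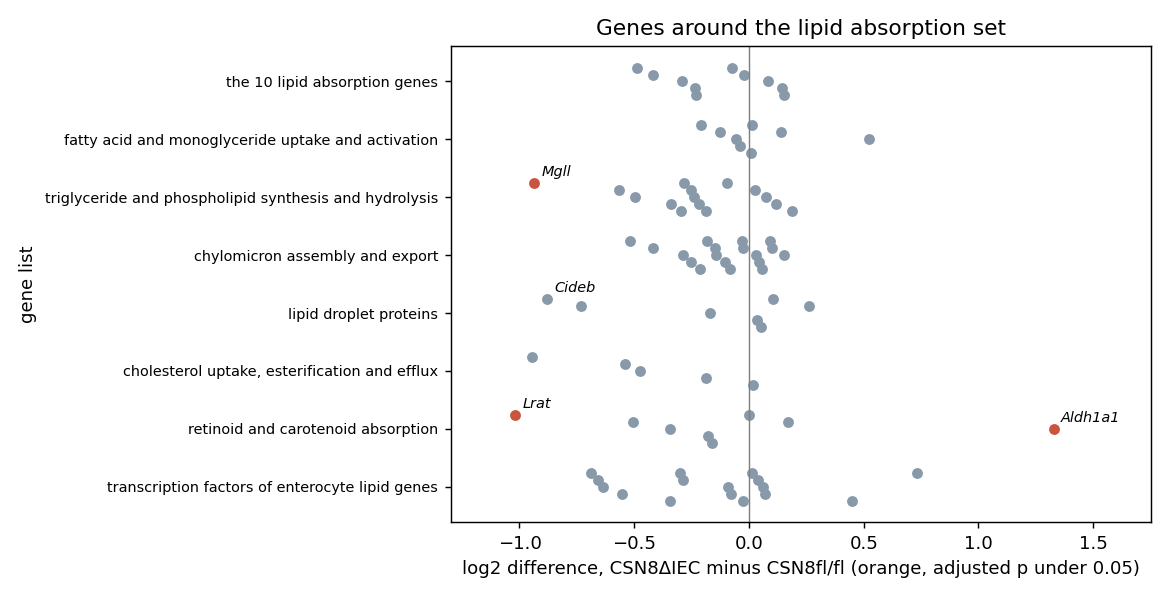
Log2 difference between CSN8ΔIEC and CSN8fl/fl for the 10 lipid absorption genes and for 7 lists of pathway genes around them, 1 point per gene, spread vertically for legibility; orange points passed an adjusted p under 0.05. Lrat, Mgll and Aldh1a1 passed, Cideb (named) did not, and the 10 genes lie between −0.49 and 0.15.

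Of 8 uptake and activation genes measured, 0 passed, 1 had an unadjusted p under 0.05 (15% of all genes) and the median was −0.016. Got2, an aminotransferase also described at the plasma membrane, differed by 0.52 (adjusted p = 0.181), Slc27a2 by −0.21 and Acsl5 by 0.14. Of 15 genes of triglyceride and phospholipid synthesis and hydrolysis, Mgll fell and the median was −0.24; the acyltransferase Agpat3 differed by −0.50 (adjusted p = 0.110) and the phosphatidate phosphatase Lpin1 by −0.56 (adjusted p = 0.158).

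Of 18 chylomicron assembly and export genes, 0 passed, 4 had an unadjusted p under 0.05 (15% of all genes) and the median was −0.094. Apobec1, which edits the Apob transcript, read 8.07, 8.71 and 8.62 in CSN8fl/fl and 7.99, 7.96 and 7.89 in CSN8ΔIEC (difference −0.52 ± 0.17, adjusted p = 0.208). Its partner in editing, A1cf, differed by −0.29 (adjusted p = 0.296), and Tm6sf2, which acts in the lipidation of apolipoprotein B particles, by −0.42 (adjusted p = 0.280). These 3, named for the smallest p of the list, were among its 7 of 18 genes whose groups did not overlap, against 22.4% of all genes.

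Of 7 lipid droplet genes, 0 passed and 2 had an unadjusted p under 0.05 (15% of all genes). Cideb, which works in the lipidation of very-low-density lipoprotein and chylomicrons, read 11.19, 11.41 and 11.88 in CSN8fl/fl and 10.53, 10.77 and 10.54 in CSN8ΔIEC, with no overlap (difference −0.88 ± 0.18, adjusted p = 0.0632). Leaving out CSN8fl/fl replicate 1 brought it past the threshold (adjusted p = 0.0410), as did leaving out dim probe sets (0.0450), array weights (0.0453) and another variance model (0.0327), and over all settings the adjusted p ran from 0.0327 to 0.242. Fitm2 differed by 0.26 and Cidec by −0.73.

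Of 5 cholesterol genes measured, 0 passed, 3 had an unadjusted p under 0.05 (15% of all genes) and the median was −0.47. The sterol exporters Abcg5 and Abcg8, which form a dimer, differed by −0.54 and −0.47 (adjusted p = 0.163 and 0.170), and Abca1 by −0.94 (adjusted p = 0.181). Of 8 retinoid genes, Lrat fell, Aldh1a1 rose and the retinol dehydrogenase Rdh7 differed by −0.50 (adjusted p = 0.136). Of 16 transcription factors, 0 passed, 7 had an unadjusted p under 0.05 (15% of all genes) and the median was −0.085. Ppara, the fatty acid receptor that drives Fabp1 and Cd36 among others, differed by −0.55 (adjusted p = 0.108), Maf by −0.63 (adjusted p = 0.113) and the coactivator Ppargc1a by −0.69 (adjusted p = 0.145). Pparg, another fatty acid receptor, had the largest difference of the list and was higher in every CSN8ΔIEC array, at 0.73 (adjusted p = 0.162); it was added after its value was seen.

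The genes whose centred profiles over the 6 arrays lay nearest to the mean profile of the 10 genes were Kdm7a, Baat, Ndfip2, Mapk8 and Il17c. Their root mean square distances were 0.023, 0.032, 0.034, 0.047 and 0.050, against a median of 0.27 over all genes. Of the 10 genes themselves Apob was nearest, at 0.077, and Apoc3 farthest, at 0.25. Over all genes, 48 lay nearer than Apob and 8666 nearer than Apoc3. Kdm7a read 9.24, 9.33 and 9.58 in CSN8fl/fl and 9.16, 9.60 and 8.99 in CSN8ΔIEC, highest in CSN8fl/fl replicate 3 and CSN8ΔIEC replicate 2. The nearest genes were picked by this distance from 18276 candidate genes over the same arrays. Their small distances and like profiles follow from that choice, and a link to the lipid genes was not tested.

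Some markers of cell types other than the absorptive enterocyte passed between the genotypes, most of them Paneth, goblet or tuft cell markers. Over all genes 0.374% rose and 0.702% fell. Of 6 Paneth cell markers 3 fell and 0 rose (median −1.02), and of 7 goblet and tuft cell markers 4 fell and 0 rose (median −0.80). The goblet markers Clca1 and Tff3 fell, by −0.80 and −0.65, while Muc2 at −0.055 and Fcgbp at −0.13 did not pass. The tuft markers Dclk1 and Pou2f3 fell, by −2.72 and −1.69, and Trpm5 at −2.27 did not pass. The stem and dividing cell list had a median of 0.45, with 7 of 8 above 0 and 0 of 8 past the threshold. At an unadjusted p under 0.05 there were 5 of its 8 genes (limma), against 15% of all genes. The groups did not overlap in 5 of the 8, against 22.4% of all genes. Of 7 proximal small intestine genes 1 fell and 0 rose (median 0.077), and of 5 distal genes 0 passed (median −0.24). Mean signals ran from 4.04 to 10.24 on the proximal list and from 10.37 to 12.67 on the distal list. The share of each region in the preparations was not tested. Of 7 hepatocyte markers 0 passed (median −0.16), with Alb, which marks a source of the same apolipoproteins, between 5.52 and 5.96. The rest of that list ran from Apoc1, at 3.64 to 4.57, to Ttr, at 6.54 to 7.52, and Serpina1a, at 6.99 to 7.59. Apoh was lower in every CSN8ΔIEC array (difference −0.76, limma, adjusted p = 0.0991), the 1 of the 7 without overlap, against 22.4% of all genes. Of 5 leukocyte markers 0 passed (median −0.39), of 6 endothelial markers 1 rose and 1 fell (median −0.22), of 6 fibroblast and muscle markers 1 rose (median 0.22), and of 4 erythrocyte and pancreas markers 0 passed (median −0.013). The part of these cell types in the values of the lipid genes was not tested.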

How the data were processed

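The deposited table holds log2 signals per probe set of Affymetrix arrays, 1 array a sample, made by the authors with RMA (background correction, quantile normalisation and summarisation) and Partek 6.6, per the submitters' processing notes; no source used here gives the settings or genome build. Of 22206 probe sets, 19572 had 1 gene symbol in the platform annotation, 0 had several and 2634 are unnamed here. For the 55 genes with several probe sets the brightest was used. Genotypes were compared by lmFit and eBayes of limma 3.58.1 (R 4.3.3; 8.85 moderated degrees of freedom), two-sided, with Benjamini-Hochberg adjustment over all 19505 genes; adjusted p-values and SEs are from this fit. The same function was tested on simulated data. Further models added a term for replicate 3 and its interaction with genotype.

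The 10 genes and all lists were chosen with earlier results of these data known. Named genes were the 10, pathway genes past the threshold or among the 3 smallest p of their list, single markers by smallest p or as defining markers of a cell type (chosen after their values were seen), and the 5 nearest profiles without predicted genes. Same-numbered replicates did not deviate together (correlations 0.12, −0.024 and 0.038 over all genes), so the numbers were not taken as pairs. The 14 alternatives were a filter on dim probe sets (mean under 6), 2 rescalings, the mean of probe sets, the replicate block, a term for replicate 3, another variance model, array weights and each array left out.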

Additional observations from a re-analysis of the deposited data

How the results depend on the processing

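None of the 10 lipid absorption genes passed the threshold under any of the 14 alternatives, and the lowest adjusted p was 0.105, for Apoc3 without CSN8ΔIEC replicate 2. Their median difference stayed below 0 in each, between −0.29 and −0.027. The sign turned for differences near 0: Apob was 0.018 with a further quantile normalisation, Fabp1 was 0.0088 with each array's median subtracted and 0.10 with array weights. With 1 array left out in turn, Apoa4 ran from −0.019 to 0.28, Apob from −0.21 to 0.035, Mttp from −0.074 to 0.20 and Fabp1 from −0.30 to 0.22. The count of 210 genes over all genes ran from 41 to 228 with 1 array left out (41 without CSN8ΔIEC replicate 1), and was 299 with dim probe sets left out. With the replicate block it was 202, and no call on the 10 genes or on Lrat, Aldh1a1 and Mgll changed. The pathway count of 3 ran from 0 to 4 with 1 array left out; these pathway values were added after seeing the data. Mgll was left out by the filter on dim probe sets.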
